A study of Rattus norvegicus with 17 samples.

Results

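The genes described here are the ion channels, ion pumps and aquaporins, with their subunits and nucleotide receptors, that had a symbol in the study's tables of changed kidney transcripts. They were picked by the start of the gene symbol (for example Aqp, Kcn, Scn, Clc, Cacn, Trp, Atp6 or P2r), which gave 23 of the 2007 genes with a symbol, in a count table of 23487 genes. Trpv6 was kept out of the set by the same rule and is shown beside Trpv5. The prefixes also caught Clcf1, which is a cytokine and not a channel, and Clca4, a regulator of chloride conductance. All 23 stood in the part used here of the list of study 1, a separate experiment on other rats, so differences in the rats analysed here could be tested. 5 of them (Cacnb3, Clcf1, Clcn6, Itpr3 and P2ry2) also stood in the part used here of the list of study 2, which was made from the rats analysed here, and are described without a test.

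The rats were male Wistar Han. In sub-total nephrectomy (SNx) a piece of the right kidney was resected and the left kidney was taken out in a second operation, so that a remnant has to do the work of both organs, and chronic kidney disease develops. Kidney RNA came from 12 SNx rats and 5 control rats, with 1 library per rat, and the controls are called NoOp as in the sample labels although the study's methods call those of study 2 sham operated. The labels give neither genotype nor age beyond this, nor the time after surgery. By the study's account only a minority of the SNx rats of study 2, fewer than the 12 analysed here, reached its disease threshold. Some of the 12 were therefore below that threshold, and the labels do not say which. Libraries are numbered within each group and the numbers pair no rats. The samples were pieces of whole kidney, so a lower level in the tissue can come from fewer cells of a type or from less RNA per cell, and these cannot be told apart.

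Estimated counts per gene summed to between 19210434 and 30784070 in the SNx libraries and to between 30454170 and 43876369 in the NoOp libraries, and no library repeated another. All NoOp libraries and 6 of the SNx libraries had titles in the lower range of library numbers and the other 6 SNx libraries in the higher range. RNA integrity per library was not given, and the study's methods state a wide range of it over all samples. Its part in the spread among SNx rats was not tested. Levels below are log2 CPM, that is each count relative to its TMM-scaled library total, with a prior count of 2, on the log2 scale and not per gene length. Fold changes are log2 values of SNx over NoOp from edgeR's quasi-likelihood fit, each with its standard error (SE) and a Benjamini-Hochberg adjusted p over the 15438 genes tested, so that 1 unit is a doubling. They compare mean counts, so rats with high counts weigh more in them than in a difference of mean log2 CPM.

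The nephron recovers filtered water and salt through transport proteins that sit in fixed places along the tubule. The proximal tubule takes up most of it through sodium-coupled carriers, and water follows through aquaporins. The distal convoluted and connecting tubule sets the final calcium uptake, the principal cells of the collecting duct set sodium and water uptake, and the intercalated cells next to them secrete acid or base with a proton pump. Other channels and pumps are not tied to a segment, and serve calcium stores, endosomes, lysosomes or the signalling of immune and connective tissue cells.

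In SNx kidneys, the water channels and the potassium channel of the proximal tubule and 2 subunits of the proton pump fell, whereas the calcium entry channel of the distal tubule, the calcium-activated channels and the UDP receptor P2ry6 rose. All 18 tested members passed the test, 10 with higher and 8 with lower levels in SNx. Among all genes tested 58.0% passed, 30.3% higher and 27.7% lower, and among the 1880 tested genes with a symbol in the list of study 1 the share was 93.6%, with 52.6% higher and 41.0% lower. A set picked from that list therefore had to be called nearly in full, and the count of 18 says nothing particular about channels and pumps. The groups did not overlap for 11 of the 18, with SNx above all NoOp rats for 5 and below all NoOp rats for 6, against 23.1% of all genes tested (13.5% above and 9.60% below) and 67.6% of the genes in the list of study 1 (40.9% above and 26.6% below). Over the tested members the log2 fold change had a median of 0.47, beside 0.02 over all genes tested and 0.46 over the genes in the list of study 1. Without TMM scaling the median of all genes moved by 0.21 and all 23 members kept their direction. When a change of more than 1.5-fold was asked for, 8 of the 18 passed, 6 higher (Fxyd3, Kcnj5, Kcnn4, P2ry6, Trpv5 and Ano1) and 2 lower (Aqp1 and Cacng5).

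**Figure D1:**
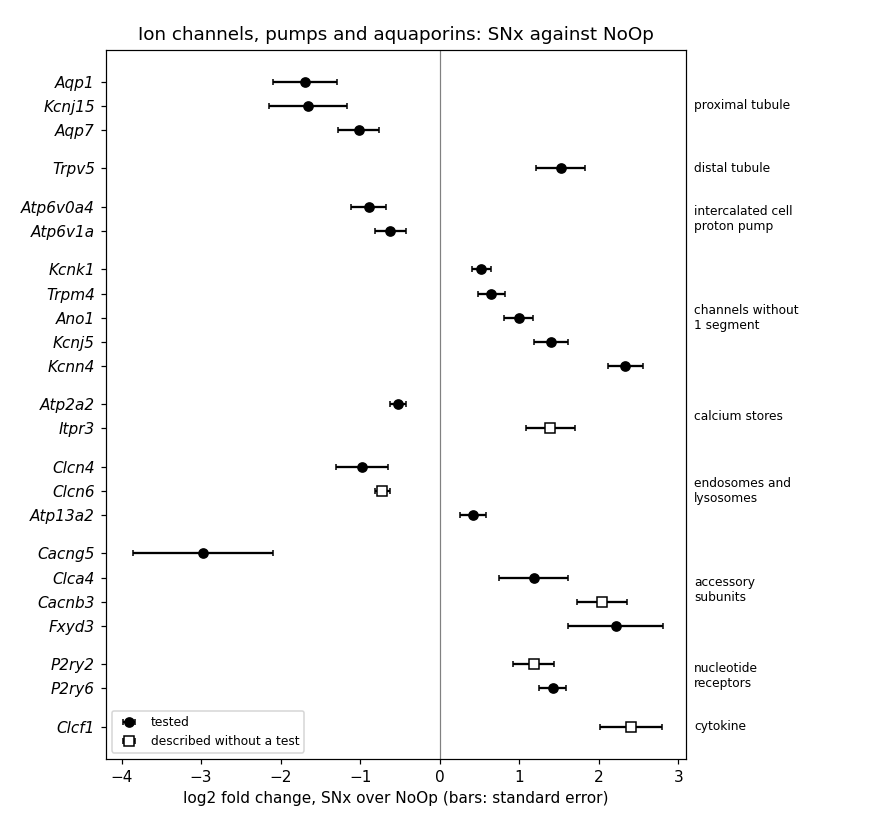
Log2 fold change of SNx (12 rats) over NoOp (5 rats) for the 23 genes, grouped by role, with bars of 1 SE; filled circles are the 18 tested genes and open squares the 5 described without a test. The proximal tubule genes and the proton pump subunits lie left of 0, from -1.69 for Aqp1 to -0.62 for Atp6v1a, while Cacng5 lies farthest left at -2.97 and Clcf1 farthest right at 2.40.

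Aqp1 (ENSRNOG00000011648) encodes the main water channel of the proximal tubule and thin descending limb. The 5 NoOp rats had 10.99, 11.49, 11.51, 11.68 and 11.56 log2 CPM. The 12 SNx rats ranged from 7.51 to 10.71 log2 CPM with a median of 9.92, so every SNx rat was below every NoOp rat. Aqp1 fell by 1.69 on the log2 scale (SE 0.40, edgeR adjusted p = 0.0019). SNx 1 had the lowest level and SNx 4 the highest of the SNx rats, and the spread among SNx rats (SD 1.06) exceeded that among NoOp rats (SD 0.26).

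Kcnj15 (ENSRNOG00000001656), an inwardly rectifying potassium channel of the basolateral membrane of proximal tubule cells, gave a like pattern. NoOp rats had 7.74, 8.02, 7.13, 7.82 and 7.18 log2 CPM. SNx rats ranged from 2.77 to 6.86 log2 CPM with a median of 6.18, again without overlap. Its log2 fold change was -1.65 (SE 0.49, edgeR adjusted p = 0.0088). The extremes were the same rats as for Aqp1, SNx 1 lowest and SNx 4 highest.

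Aqp7 (ENSRNOG00000009686), the water and glycerol channel of the straight proximal tubule, fell by 1.02 on the log2 scale (SE 0.26, edgeR adjusted p = 0.0032). NoOp rats had 5.82, 5.87, 5.91, 5.87 and 5.43 log2 CPM, and SNx rats ranged from 3.33 to 5.39 with a median of 4.70. The groups did not overlap but nearly met, since the lowest NoOp rat was 0.03 log2 CPM above the highest SNx rat.

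The promoters of Aqp1 and Kcnj15 are printed because both genes fell together, and they run from 250 bases before to 50 bases after the start site in RefSeq's GRCr8 (rat genome) annotation, matched by symbol. Capitals mark the letters of a TATA box (TATAAA), a GC box (GGGCGG) or a CCAAT box (CCAAT), searched on both strands. The Aqp1 window is chr4:85812534-85812833, plus strand, and the Kcnj15 window is chr11:48070700-48070999, plus strand.
Aqp1: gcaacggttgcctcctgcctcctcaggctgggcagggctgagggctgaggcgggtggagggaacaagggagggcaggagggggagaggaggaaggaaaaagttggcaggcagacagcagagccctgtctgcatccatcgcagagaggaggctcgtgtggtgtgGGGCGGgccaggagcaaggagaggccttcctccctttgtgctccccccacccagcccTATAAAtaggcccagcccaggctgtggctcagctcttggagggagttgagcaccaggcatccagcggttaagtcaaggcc
Kcnj15: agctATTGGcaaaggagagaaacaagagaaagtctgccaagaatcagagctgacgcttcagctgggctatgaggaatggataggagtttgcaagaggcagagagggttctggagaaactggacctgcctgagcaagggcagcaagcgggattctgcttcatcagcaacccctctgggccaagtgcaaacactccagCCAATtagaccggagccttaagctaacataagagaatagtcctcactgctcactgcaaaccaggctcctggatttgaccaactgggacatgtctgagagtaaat
In the Aqp1 window the TATA box began 30 bases before the start site, at -30, and the GC box began at -87. In the Kcnj15 window CCAAT letters began at -246 and at -54. TATAAA was present in 14.2% of all 33469 promoter windows of that length, GGGCGG in 33.1% and CCAAT in 37.5%. A match is a description of the letters and not evidence of binding.

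The level of each segment gene was set beside markers of its segment in the same rats, as log2 CPM of the gene minus the mean log2 CPM of the markers. 30 of the 36 listed proximal tubule markers were measured, 28 of these fell, none rose and 2 did not pass the test (median log2 fold change -1.46). Among those with the highest log2 CPM in NoOp were the endocytic receptor Lrp2 (-1.19, edgeR adjusted p = 0.0053) and the gluconeogenic enzyme Pck1 (-2.76, edgeR adjusted p = 0.0028). Symbols came from lists of changed genes, so markers that did not change in study 1 are less likely to be among those measured. The mean of the 30 markers was 9.16 to 9.56 log2 CPM in NoOp rats and 4.92 to 8.80 in SNx rats, with no overlap.

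Relative to these markers Aqp1 was 2.08 ± 0.31 (SD, n = 5) in NoOp and 1.98 ± 0.25 (SD, n = 12) in SNx, a difference of -0.10 (two-sided exact permutation test, p = 0.483, adjusted over 6 genes 0.580). Kcnj15 differed by -0.21 relative to the markers (exact permutation test, p = 0.268, adjusted 0.403). A p above the threshold does not show that the ratios were equal, but the difference of the mean log2 CPM of the genes themselves was -1.98 for Aqp1 and -2.08 for Kcnj15, beside -1.87 for the markers. Aqp7 stood higher relative to the markers in SNx by 0.74 (exact permutation test, p = 0.0252), and this did not pass after adjustment (0.0756). 8 of 12 SNx rats were above all NoOp rats in that ratio. It was 1.09 in the SNx rats of the lower range of library numbers and 0.38 in those of the higher range.

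**Figure D2:**
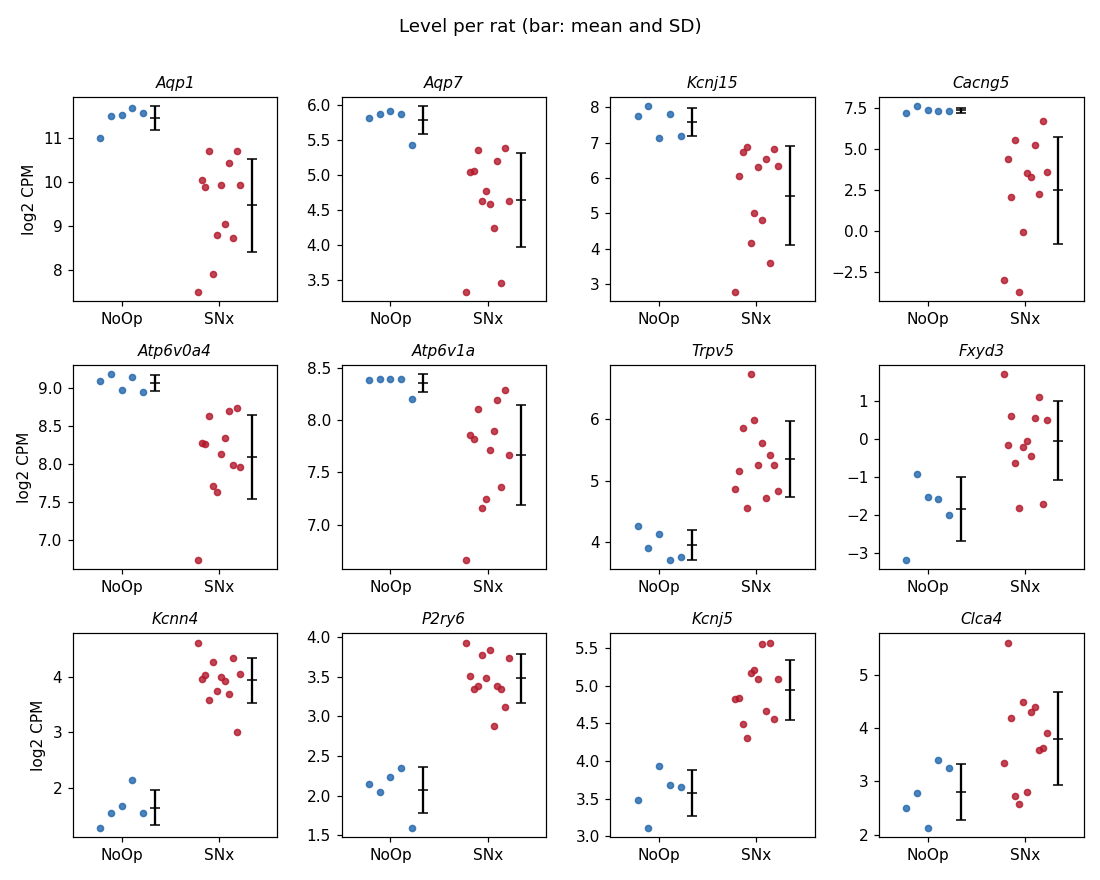
Level of 12 of the genes in each rat, in log2 CPM on the vertical axis, with NoOp (5 rats, blue) and SNx (12 rats, red), and with the mean and SD of each group as a black bar; each panel has its own scale. Aqp1, Aqp7, Kcnj15, Cacng5 and Atp6v0a4 have every SNx rat below the NoOp rats, Trpv5, Kcnn4, P2ry6 and Kcnj5 every SNx rat above, and Atp6v1a, Fxyd3 and Clca4 overlap.

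Cacng5 (ENSRNOG00000003288), of the family of calcium channel gamma subunits and AMPA receptor auxiliary proteins, had the largest negative fold change of the set. NoOp rats had 7.17, 7.59, 7.37, 7.34 and 7.30 log2 CPM, from 4036 to 6271 counts. SNx rats ranged from -3.75 to 6.69 log2 CPM with a median of 3.41, that is from 0 counts in SNx 5 and 1 count in SNx 1 to 2203 counts in SNx 11. Every SNx rat was below every NoOp rat. The log2 fold change was -2.97 (SE 0.88, edgeR adjusted p = 0.0084), and the difference of mean log2 CPM was -4.87. The SD among SNx rats was 21.5 times that among NoOp rats, the highest such ratio among the members. Leaving out each library in turn gave fold changes from -3.60, without SNx 11, to -2.84.

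The Cacng5 window is chr10:93336618-93336917, minus strand, and is shown as that of the member that varied most. The letters searched above were not found in it on either strand, and nothing is drawn from this about any factor.
Cacng5: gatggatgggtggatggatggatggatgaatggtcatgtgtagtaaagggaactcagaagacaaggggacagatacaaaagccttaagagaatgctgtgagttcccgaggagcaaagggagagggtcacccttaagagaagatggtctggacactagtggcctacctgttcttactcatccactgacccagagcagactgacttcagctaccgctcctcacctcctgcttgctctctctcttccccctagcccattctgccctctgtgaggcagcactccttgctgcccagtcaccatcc

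Trpv5 (ENSRNOG00000015394), the apical calcium entry channel of the distal convoluted and connecting tubule, rose. NoOp rats had 4.26, 3.90, 4.14, 3.71 and 3.76 log2 CPM. SNx rats ranged from 4.56 to 6.72 log2 CPM with a median of 5.25, all above the NoOp rats, with SNx 5 highest and SNx 4 lowest. The log2 fold change was 1.52 (SE 0.31, edgeR adjusted p = 6.2e-04).

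The 3 measured markers of the same segment, of 9 listed, all fell. They were Cnnm2, a magnesium transport protein (-0.80, edgeR adjusted p = 3.1e-04), the transcription factor gene Emx1 (-1.21, edgeR adjusted p = 1.5e-04) and S100g, which encodes the calcium-binding protein calbindin-D9k (-2.13, edgeR adjusted p = 0.0018). The classical markers of the segment were not among the genes with a symbol and were not analysed here. S100g was low, with 27 to 70 counts in NoOp and 0 to 28 counts in SNx. Trpv5 minus S100g was 3.35 ± 0.67 (SD, n = 5) in NoOp and 7.02 ± 1.57 (SD, n = 12) in SNx, a difference of 3.68 (two-sided exact permutation test, p = 3.2e-04, adjusted over 6 genes 0.00194) with 12 of 12 SNx rats above all NoOp rats. Against the mean of all 3 markers the difference was 2.86 (exact permutation test, p = 1.6e-04, the smallest the design allows). Every SNx rat was above all NoOp rats for Trpv5, and below them for each of the 3 markers. Both differences therefore had to separate the groups, and their p-values add nothing to the separate changes. By their separate fold changes, the channel transcript and these marker transcripts of its segment moved in opposite directions. The related channel Trpv6 moved the same way as Trpv5, with a median of -0.93 log2 CPM in NoOp (13 to 17 counts) and 4.56 in SNx (195 to 977 counts). As the genes are close paralogs, reads shared between them could have been split by the authors' quantification, which was not tested.

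The Trpv5 window, shown beside those of the members that fell, is chr4:71529333-71529632, minus strand, and it held none of the searched letters.
Trpv5: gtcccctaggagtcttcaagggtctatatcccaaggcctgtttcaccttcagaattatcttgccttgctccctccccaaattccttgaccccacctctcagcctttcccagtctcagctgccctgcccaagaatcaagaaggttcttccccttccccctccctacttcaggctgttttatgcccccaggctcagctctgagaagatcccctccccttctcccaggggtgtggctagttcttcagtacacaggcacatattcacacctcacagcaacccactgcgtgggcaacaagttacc
Among all members, 17 of 23 had a window in the table and Aqp7, Clcf1, Fxyd3, Kcnk1, Kcnn4 and P2ry6 had none. GGGCGG was present in 7 of the 9 windows of members with a positive fold change (Ano1, Atp13a2, Cacnb3, Itpr3, Kcnj5, P2ry2 and Trpm4) and in 3 of the 8 windows of members with a negative one (Aqp1, Atp2a2 and Clcn6), beside 33.1% of all windows. TATAAA was present in 0 of 9 and in 2 of 8 (Aqp1 and Atp6v1a), and CCAAT in 1 of 9 (Clca4) and in 2 of 8 (Atp2a2 and Kcnj15). These are counts of letters in few windows and were not tested.

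The proton pump, which intercalated cells hold in large amounts and other cells also use, was represented by 2 subunits, both of which fell. Atp6v0a4 (ENSRNOG00000013428), the membrane subunit used by acid-secreting kidney cells, had 9.09, 9.18, 8.97, 9.15 and 8.95 log2 CPM in NoOp rats and 6.74 to 8.74 in SNx rats with a median of 8.19, without overlap (log2 fold change -0.89, SE 0.22, edgeR adjusted p = 0.0026). Atp6v1a (ENSRNOG00000001992), the catalytic subunit found in most cells, had 8.38, 8.39, 8.39, 8.39 and 8.20 log2 CPM in NoOp rats and 6.66 to 8.29 in SNx rats with a median of 7.76 (log2 fold change -0.62, SE 0.19, edgeR adjusted p = 0.011). 11 of the 12 SNx rats were below all NoOp rats for Atp6v1a, and SNx 11 was within their range.

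Of the 12 listed intercalated cell markers 5 were measured, of which 4 fell and 1 rose. The anion exchangers Slc4a9 (-0.65, edgeR adjusted p = 0.008) and Slc26a4 (-0.72, edgeR adjusted p = 0.0033) fell and the receptor Kit (0.61, edgeR adjusted p = 0.0071) rose. Relative to the mean of the 5 markers Atp6v0a4 differed by -0.29 (two-sided exact permutation test, p = 0.0797, adjusted 0.159) and Atp6v1a by -0.01 (exact permutation test, p = 0.964). These ratios rested on the choice of markers. Without Kit they were 0.02 and 0.31, and against the median of the markers -1.46 and -1.18. By mean log2 CPM Kit was the middle of the 5 markers in both groups (5.74 in NoOp and 6.31 in SNx). The median therefore lay near the 1 marker that rose, and both alternatives turn on Kit. No direction relative to intercalated cells can be given for either subunit.

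The 5 channels without a fixed segment all rose. Kcnn4, the calcium-activated potassium channel of red cells, lymphocytes and fibroblasts, had 1.28, 1.56, 1.68, 2.14 and 1.55 log2 CPM in NoOp rats. SNx rats ranged from 3.01 to 4.61 log2 CPM with a median of 3.97, all above the NoOp rats (log2 fold change 2.33, SE 0.22, edgeR adjusted p = 6.1e-07). Kcnn4 had the lowest adjusted p of the tested members and a gap of 0.87 log2 CPM between the groups, the widest of the set in either direction.

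Kcnj5, a G protein-gated potassium channel best known from heart and adrenal gland, had 3.48, 3.11, 3.93, 3.68 and 3.66 log2 CPM in NoOp rats and 4.31 to 5.57 in SNx rats with a median of 4.96 (log2 fold change 1.40, SE 0.21, edgeR adjusted p = 3.9e-05). Ano1, the calcium-activated chloride channel, was 3.52 to 3.96 log2 CPM in NoOp and 4.07 to 5.29 in SNx (0.99, SE 0.18, edgeR adjusted p = 2.5e-04). The groups overlapped for neither gene. Trpm4, a calcium-activated cation channel, rose by 0.65 on the log2 scale (SE 0.17, edgeR adjusted p = 0.0039) with 10 of 12 SNx rats above all NoOp rats. Kcnk1, a background potassium channel, rose by 0.52 (SE 0.12, edgeR adjusted p = 0.0019) with 11 of 12 above. Kcnn4, Ano1 and Trpm4 all open on a rise of cytosolic calcium.

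The pump and the release channel of the calcium store differed in sign. Atp2a2, the calcium pump of the endoplasmic reticulum, had 9.50 to 9.64 log2 CPM in NoOp and 8.62 to 9.30 in SNx without overlap, and fell by 0.52 on the log2 scale (SE 0.10, edgeR adjusted p = 4.7e-04). Itpr3, an inositol trisphosphate receptor that releases calcium from the same store, was described without a test. It had 7.73, 7.37, 7.51, 7.34 and 7.80 log2 CPM in NoOp rats and 7.77 to 9.66 in SNx rats with a median of 8.67 (log2 fold change 1.39, SE 0.31). 11 of 12 SNx rats were above all NoOp rats for Itpr3, and SNx 11 was not.

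Among the transporters of endosomes and lysosomes, Clcn4, a chloride-proton exchanger of endosomes, fell by 0.98 on the log2 scale (SE 0.33, edgeR adjusted p = 0.018), from 5.43 to 5.88 log2 CPM in NoOp to 2.57 to 5.52 in SNx, with SNx 11 alone inside the NoOp range. Clcn6, its late endosomal relative, had 7.62 to 7.77 log2 CPM in NoOp and 6.56 to 7.22 in SNx with no overlap (log2 fold change -0.72, no test). Atp13a2, a polyamine pump of lysosomes, rose by 0.42 (SE 0.16, edgeR adjusted p = 0.03), the smallest change of the set. 10 of 12 SNx rats were above all NoOp rats for Atp13a2 and 1, SNx 11, was below them. Its call was lost without NoOp 1, 2, 3 or 4 (edgeR adjusted p from 0.061 to 0.068) and with the SNx rats of the higher library number range alone (0.079).

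The accessory subunits went both ways, with Cacng5 lower and the others higher. Fxyd3, a regulator of the sodium-potassium pump, had -3.18, -0.93, -1.53, -1.59 and -2.01 log2 CPM in NoOp rats and -1.81 to 1.69 in SNx rats with a median of -0.11 (log2 fold change 2.21, SE 0.60, edgeR adjusted p = 0.0049). It was close to the limit of detection, with 1 to 13 counts in NoOp and 5 to 66 counts in SNx, and SNx 5 and SNx 11 were inside the NoOp range. Clca4 rose by 1.18 (SE 0.43, edgeR adjusted p = 0.026), with 8 of 12 SNx rats above all NoOp rats and 5.60 log2 CPM in SNx 2 as the highest value. Clca4 belongs to a family of similar genes that may share reads, and its call was lost without NoOp 1, 2 or 3 (edgeR adjusted p from 0.056 to 0.072) and in limma-voom (adjusted p 0.059). Cacnb3, a beta subunit of voltage-gated calcium channels, had 2.88, 3.26, 2.97, 3.11 and 3.54 log2 CPM in NoOp rats and 3.95 to 6.25 in SNx rats with a median of 5.14 (log2 fold change 2.04, no test).

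Both nucleotide receptors were higher in SNx. P2ry6, a receptor for UDP that macrophages carry, had 2.15, 2.05, 2.23, 2.35 and 1.59 log2 CPM in NoOp rats and 2.88 to 3.93 in SNx rats with a median of 3.43, without overlap (log2 fold change 1.42, SE 0.17, edgeR adjusted p = 5.4e-06). Its spread was nearly the same in both groups, with an SD of 0.31 in SNx and 0.29 in NoOp. P2ry2, a receptor for ATP and UTP on collecting duct and other epithelia, had 2.87 to 3.45 log2 CPM in NoOp and 3.32 to 4.98 in SNx (log2 fold change 1.18, no test). Clcf1, the cytokine of the interleukin family caught by its symbol, had 3.30, 2.78, 3.40, 3.03 and 3.03 log2 CPM in NoOp rats and 4.12 to 6.46 in SNx rats with a median of 5.25, the largest positive fold change of the set (2.40, no test).

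The members varied more among SNx rats than among NoOp rats. The SD of log2 CPM was larger in SNx for all 23 members, with a median ratio of 3.24 and a range from 1.05 for P2ry6 to 21.5 for Cacng5, beside 81.9% of all genes tested with a median ratio of 1.65. The share and the ratio were not computed for the genes in the list of study 1, from which the members came. The same few rats were at the ends for most members. Of the 9 members with a negative fold change, SNx 1 was farthest from the NoOp rats for 8 and SNx 5 for 1, while SNx 11 was nearest for 5, SNx 4 for 3 and SNx 7 for 1. Of the 14 with a positive fold change, SNx 1 was farthest for 8 and SNx 11 nearest for 7. SNx 1 also had the lowest mean of the proximal tubule markers (4.92 log2 CPM) and SNx 11 the highest among SNx rats (8.80). The library total was lowest in SNx 1 as well (19210434 counts). How often these rats were at the ends over all genes tested was not computed. The counts of extreme rats therefore cannot be called particular to the members.

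**Figure D3:**
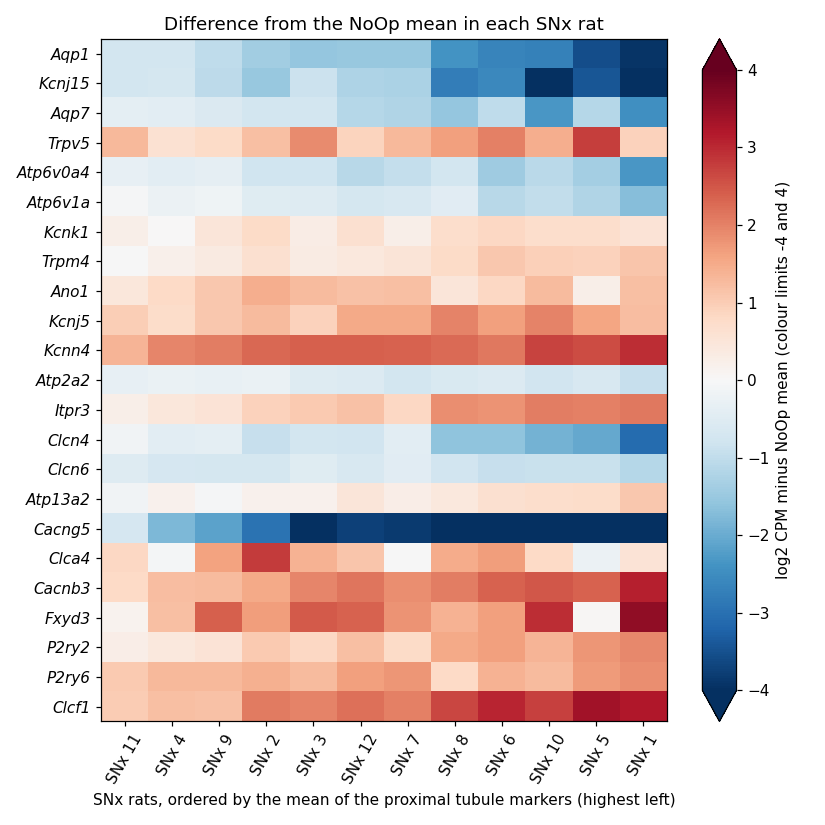
Log2 CPM of each gene in each SNx rat minus the mean of the 5 NoOp rats, blue for lower and red for higher, with colours saturated at -4 and 4; columns are the 12 SNx rats ordered by the mean of the 30 proximal tubule markers, from 8.80 in SNx 11 to 4.92 in SNx 1. Aqp1, Kcnj15, Clcn4 and Cacng5 darken from left to right, as do Itpr3, Cacnb3 and Clcf1 in the other direction, whereas Trpv5, Ano1 and Clca4 follow no such order.

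Within the 12 SNx rats each member was related to the mean log2 CPM of the proximal tubule, intercalated cell and leukocyte markers, 69 pairs in all, with Benjamini-Hochberg adjustment over these and 100000 permutations, of which 1.0e-05 is the smallest p that is possible. Calls are given for the 18 tested members, and for the other 5 only r and rho. With the proximal tubule markers 8 of the 18 went up and 3 went down past the threshold, and 7 did not pass. Among all genes tested, the markers included, 18.9% had an r at least as high as the smallest r called (0.77 in size) and 13.3% as far below 0. With the intercalated cell markers 2 went up (5.73% of all genes at that size of r, 0.70) and 2 went down (3.62%). The 2 that went down were P2ry6 and Atp13a2. Atp13a2 passed by Pearson's r (-0.70, permutation p = 0.011, adjusted 0.034) but not by Spearman's rho (-0.65, permutation p = 0.026, adjusted 0.076). With the leukocyte markers 2 went up (2.49%, at 0.75). These shares were not computed for the genes in the list of study 1, from which the members were picked. The counts therefore cannot be called particular to channels and pumps. The marker means were themselves related, with r = 0.59 between proximal tubule and intercalated cell, -0.47 between proximal tubule and leukocyte and -0.73 between intercalated cell and leukocyte markers, so these relations overlap. All values share the libraries and their scaling.

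Aqp1 followed the proximal tubule markers, with Pearson's r = 0.98 and Spearman's rho = 0.97 (permutation p = 1.0e-05 for both, adjusted 1.1e-04 and 2.8e-04), and r was 0.98 without the 2 rats farthest from the median, SNx 1 and SNx 5. Clcn4 (r = 0.98, rho = 0.92, permutation p = 1.0e-05 and 3.0e-05, adjusted 1.1e-04 and 3.4e-04) and Kcnj15 (r = 0.97, rho = 0.92, permutation p = 1.0e-05 and 4.0e-05, adjusted 1.1e-04 and 3.8e-04) gave r = 0.95 without those rats. Cacng5 had r = 0.89 and rho = 0.91 (permutation p = 1.4e-04 and 1.8e-04, adjusted 8.0e-04 and 0.0011), and r = 0.79 without them. Clcn4, assigned to endosomes and to no segment, thus gave as high an r with the markers as the proximal channels did, and the difference between these was not tested. Aqp7 had r = 0.86 and rho = 0.86 (permutation p = 3.8e-04 and 6.4e-04, adjusted 0.0016 and 0.0029).

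The opposite relation was seen for members whose level was higher in SNx. Atp13a2 had r = -0.95 and rho = -0.96 (permutation p = 1.0e-05 for both, adjusted 1.1e-04 and 2.8e-04), with r = -0.90 without SNx 1 and SNx 5. Trpm4 had r = -0.90 and rho = -0.92 (permutation p = 5.0e-05 and 8.0e-05, adjusted 3.4e-04 and 5.5e-04) and Kcnn4 r = -0.77 and rho = -0.80 (permutation p = 0.0028 and 0.0029, adjusted 0.0097 and 0.011), with r = -0.92 and -0.60 without those rats. Of the members described without a test, Itpr3, P2ry2, Cacnb3 and Clcf1 had r from -0.92 to -0.90 and rho from -0.94 to -0.93, and Clcn6 had r = 0.87 and rho = 0.69. Trpv5 did not pass (r = -0.37, rho = -0.52, permutation p = 0.24 and 0.083, adjusted 0.30 and 0.17), with r = -0.60 without those rats. Ano1, Clca4, Fxyd3, P2ry6, Kcnj5 and Kcnk1 did not pass either, although r for Kcnj5 went from -0.55 to -0.90 without SNx 1 and SNx 5.

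**Figure D4:**
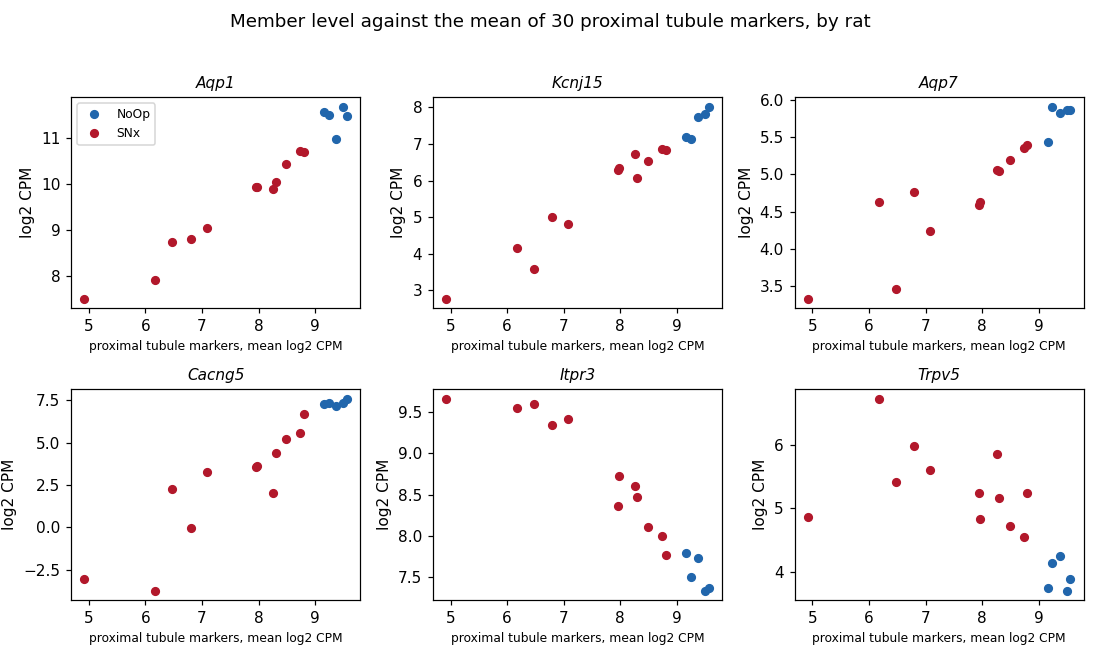
Level of 6 genes in log2 CPM (vertical) against the mean log2 CPM of 30 proximal tubule markers (horizontal), 1 point per rat, NoOp in blue and SNx in red. Aqp1, Kcnj15, Aqp7 and Cacng5 rise with the markers among SNx rats, Itpr3 falls, and Trpv5 is scattered; no SNx rat lies between 7.08 and 7.95 on the horizontal axis.

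The proton pump subunits were related to both tubule scores. Atp6v0a4 had r = 0.86 and rho = 0.88 with the intercalated cell markers (permutation p = 3.7e-04 and 2.7e-04, adjusted 0.0016 for both) and r = 0.90 and rho = 0.87 with the proximal tubule markers (permutation p = 1.2e-04 and 3.6e-04, adjusted 7.5e-04 and 0.0019). Atp6v1a had r = 0.81 and rho = 0.83 with the former (permutation p = 0.0013 and 0.0014, adjusted 0.0049 and 0.0058) and r = 0.94 and rho = 0.91 with the latter (permutation p = 3.0e-05 and 5.0e-05, adjusted 2.3e-04 and 3.8e-04). Against the median of the intercalated cell markers, which lay near Kit, r was -0.12 for Atp6v0a4 and -0.23 for Atp6v1a. The difference between these correlations was not tested.

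P2ry6 and Kcnn4 passed with the leukocyte markers. P2ry6 had r = 0.85 and rho = 0.82 (permutation p = 6.3e-04 and 0.0021, adjusted 0.0026 and 0.0079) and Kcnn4 r = 0.75 and rho = 0.73 (permutation p = 0.0043 and 0.0089, adjusted 0.014 and 0.031), with r = 0.70 and 0.82 without SNx 8 and SNx 11. Against the median of the leukocyte markers r was 0.88 for P2ry6 and 0.63 for Kcnn4 (permutation p = 2.5e-04 and 0.03, before adjustment). P2ry6 also ran against the intercalated cell markers (r = -0.84, rho = -0.84, permutation p = 0.0011 and 0.0012, adjusted 0.0043 and 0.0052). All 15 leukocyte markers measured, of 18 listed, rose (median log2 fold change 1.99), and their mean was 2.57 to 3.21 log2 CPM in NoOp rats and 4.25 to 5.50 in SNx rats. The part of these cells in the higher P2ry6 and Kcnn4 levels was not tested.

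Of 43 other ion transport genes listed, carriers and their regulators, 25 were measured, of which 15 fell, 9 rose and 1 did not pass the test (median log2 fold change -0.72). Those with the highest log2 CPM in NoOp were the phosphate carrier Slc34a1 (-1.42, edgeR adjusted p = 0.038), the parathyroid hormone receptor Pth1r (-1.35, edgeR adjusted p = 0.0016) and the sodium-proton exchanger Slc9a3 (-1.32, edgeR adjusted p = 0.011), and 2 of the 25, Slc34a1 and Slc9a3, also stood among the proximal tubule markers. None of the 10 principal cell markers listed had a symbol, so the water and sodium channels of the collecting duct were not analysed here. Of 11 thick ascending limb markers 3 were measured, with Cldn19 higher (0.99, edgeR adjusted p = 1.6e-04), Cldn10 lower (-0.81, edgeR adjusted p = 0.017) and Ptger3 not past the test (0.10, edgeR adjusted p = 0.40). All 7 measured markers of injured tubule, of 11, rose, led in NoOp level by Spp1 (4.44, edgeR adjusted p = 1.4e-06), as did all 3 of 10 fibroblast markers, led by Col3a1 (2.74, edgeR adjusted p = 2.8e-05). The single endothelial marker measured of 8, Ehd3, fell by 0.73 on the log2 scale (edgeR adjusted p = 0.0041), and the podocyte marker Ptpro, of 7 listed, fell by 1.32 (edgeR adjusted p = 1.6e-05). Of the measured genes of these lists, 3 other ion transport genes, 3 injured tubule markers, 1 proximal tubule marker, Ehd3 and 1 podocyte marker stood in the part used of the list of study 2, made from these rats, and so are not independent evidence of direction.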

How the data were processed

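Kidney RNA of 12 SNx and 5 NoOp rats was depleted of ribosomal RNA and sequenced paired-end from strand-specific libraries (the labels name polyA RNA as the molecule). The authors quantified transcripts against Rn6 and used tximport for gene-level sums, which they deposited as estimated counts in whole numbers. The submitters' processing notes name Salmon and limma without versions. The authors also deposited log2 values, described as voom-transformed length-scaled counts, for 13318 genes, used here in 1 alternative. The 34 columns of the whole-series tables were not used. The libraries held from 19210434 to 43876369 counts, and no molecular identifiers are mentioned, so counts are not single molecules.

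The test was edgeR 4.0.16 in R 4.3.3 (filterByExpr, TMM, glmQLFit and glmQLFTest, two-sided, Benjamini-Hochberg over 15438 genes, threshold 0.05), after checks on simulated counts. The SE is the log2 fold change divided by the root of its F statistic. All 23 members passed the filter. Ratios to markers were tested with exact permutation over all 6188 splits, and correlations with 100000 permutations (Python 3.11.15, scipy 1.17.1, matplotlib 3.10.9). The p-values measure the spread between rats, 1 library each.

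Symbols came from the part of the supplementary transcript lists used here (1998 entries of study 1 and 510 of study 2), and no value of those lists was used. The members and the marker lists were chosen with earlier results of these data known. Values were printed for members assigned to 1 segment, for the 3 largest positive and 3 largest negative fold changes, and for at most 3 markers per list with the highest NoOp level; values of further members were added to account for all of them, and some markers are not reported here. The alternatives comprised other tests (DESeq2 1.42.0, voom in limma 3.58.1, limma on the deposited log2 values, edgeR with robust dispersions or with a fold of at least 1.5), other scalings (RLE or none), other filters (none, or a minimum of 10 counts per library), leaving out each library, either range of library numbers, a prior count of 0.5, and the median in place of the mean of the markers. The markers without Kit and all distal markers in place of S100g were added after seeing the data.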

Additional observations from a re-analysis of the deposited data

Results flagged for a closer look

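In 4 of 29 sets of NoOp values, 1 of the 5 rats stood apart from the others by Dixon's criterion (gap over range above 0.71), where chance gives about 1 in 20, or 1.45. Aqp1 was 10.99 log2 CPM in NoOp 1, below 11.49 to 11.68 in the other rats. NoOp 5 was lower for Aqp7, at 5.43 against 5.82 to 5.91, and for Atp6v1a, at 8.20 against 8.38 to 8.39. NoOp 5 was higher for Atp13a2, at 6.59 against 6.39 to 6.44. Over the libraries left out in turn the log2 fold change was -1.82 to -1.59 for Aqp1, -1.10 to -0.94 for Aqp7, -0.69 to -0.56 for Atp6v1a and 0.35 to 0.47 for Atp13a2.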

How the results depend on the processing

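Over 28 settings, 642 fold changes of members were recomputed and all 642 kept their direction. Of the 502 of tested members, 483 had the same call and 19 were no longer past the threshold, and of the 140 of members without a test, 1 (Clcn6, -0.52 with library size alone) moved by more than the spread between rats. The 18 calls became 8 (6 higher, 2 lower) for a fold of at least 1.5, where the test itself asks for more, and 16 to 18 (8 to 10 higher, 8 lower) when a library was left out. DESeq2 gave 18 calls and limma-voom 17, and the SNx rats of the lower and higher library number ranges alone gave 18 and 17. With 10 counts in every library Fxyd3 and Cacng5 were not tested and 16 were called. The ratio of Aqp7 to proximal tubule markers was 0.62 to 0.80 over the left-out libraries, and p was above 0.05 without SNx 6 (0.0572) and without NoOp 1, 2, 4 or 5 (0.0522 to 0.0604). Against the median of the intercalated cell markers the ratios were -1.46 for Atp6v0a4 (exact p = 3.2e-04) and -1.18 for Atp6v1a (0.00178), and without Kit 0.02 (0.844) and 0.31 (0.0246). For Atp6v1a the ratio was 0.02 with the higher library number range and -0.06 to 0.05 over the left-out libraries, with 0.01, 0.02, 0.03 and 0.05 among the values that changed sign. The correlations with the median of those markers were -0.12 for Atp6v0a4 and -0.23 for Atp6v1a. Kit was the middle intercalated cell marker by mean level in both groups, so the values against the median mostly follow Kit. The cause of the other changes was not tested. Low counts limit Fxyd3, S100g, Trpv6 in NoOp and Cacng5 in SNx 1 and SNx 5. No paired analysis applied, since SNx and NoOp were different rats with 1 library each.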
